A study of Mus musculus with 6 samples.

Results

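Autophagy machinery was examined here as 40 genes that act from the start of autophagosome formation to the choice of cargo. The genes were taken by symbol from the deposited table, which lists 39234 genes, and all 40 symbols were found. The 6 libraries were made from HK-2, a human line immortalized from the kidney's proximal tubule. The control group held 3 libraries of cells labelled Cont with a WT genotype, and the other group held 3 libraries of cells with USAG-1 overexpression. USAG-1 is a secreted antagonist of BMP and Wnt signalling. The study's methods describe overexpression in HK-2 cells by transient plasmid transfection and state that the line was not authenticated by STR typing, and neither group was labelled with hypoxia or another treatment. Mouse is given as the species in the labels, although HK-2 and the gene identifiers of the table are human. Nothing in the labels says that the 3 libraries of a group came from separate cultures, so p-values measure the spread between these libraries, which may be technical.

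Autophagy wraps cytoplasm in a growing double membrane that closes into an autophagosome and fuses with the lysosome. The ULK1 kinase complex starts the process, a class III phosphatidylinositol 3-kinase complex marks the membrane with PI3P, and ATG2 and ATG9 proteins supply lipid. Conjugation enzymes then attach ATG8 proteins (the LC3 and GABARAP groups) to the membrane, and cargo receptors bind these ATG8 proteins and the material to be degraded. In proximal tubule cells autophagy is known to clear damaged mitochondria and to protect against ischaemic and toxic injury. The proteins are regulated in large part by phosphorylation, cleavage and lipid attachment, none of which RNA levels measure.

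The total count per library was 41236194 to 48699471, so that 3 counts corresponded to between 0.0608 and 0.0719 CPM, a gene's counts relative to its library's size after edgeR's TMM scaling. SOSTDC1, the gene of USAG-1, was 1.64 ± 0.243 CPM in control libraries and 100.9 ± 10.6 CPM in overexpression libraries (SD, n = 3), and every library labelled as overexpressing lay above every control. Control replicate 3 stood apart from the other controls: it was the highest or lowest of the 6 libraries in 20 of the 39 members tested and in 50.5% of all genes tested, against 7 to 18 members and 25.3% to 31.8% of genes for each other library. Mitochondrially encoded genes took 4.80% to 5.59% of counts in control and 1.504% to 1.55% in overexpression libraries. Of 20 T cell genes, 19 (95.0%) were called lower, beside 6.91% of all genes tested. The summed level of the 20 was 141 to 164 CPM in control and 36.1 to 47.1 CPM in overexpression libraries. IL7R, the gene not called, went the other way, with 17.85 to 21.92 CPM in control and 21.94 to 27.57 CPM in overexpression libraries. It was the largest part of the sum in overexpression libraries. None of the 20 was at 0 in all libraries. Of 6 epithelial genes, 5 were tested and 1 was called (20.0%), near the 15.9% called over all genes. It was PAX8, a kidney lineage factor, at 365 to 379.9 CPM in control and 440.7 to 455 CPM in overexpression libraries (log2 fold change 0.26, adjusted p = 0.0114). KRT8 was 970.5 to 1277 CPM over the 6 libraries, and CDH1 had at most 0.206 CPM. Of 10 proximal tubule genes, 5 were tested and 2 were called, both higher: MME (log2 fold change 0.97, adjusted p = 0.000941) and GGT1 (0.55, adjusted p = 0.0208). Higher calls made up 8.95% of all genes tested, and 5 genes are too few to weigh against this share. The summed level of the proximal tubule list was 105.1 to 137.9 CPM in control and 174.1 to 202.5 CPM in overexpression libraries. GGT1 made up most of it, with 85.1 to 116.5 CPM in control and 137.1 to 164.4 CPM in overexpression libraries. ANPEP (log2 fold change -0.21), SLC5A2 (0.17) and SLC34A1 (0.74) did not pass the test. The symbols SLC22A6 and SLC22A8 were not found. The receptor LRP2 had no count in any library, and CUBN and AQP1 had at most 0.359 CPM. The part of these differences in the results on autophagy genes was not tested, and in bulk RNA fewer cells of a type and less RNA per cell cannot be told apart.

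Of the 40 genes, 39 passed the filter on low counts and were tested. Under the quasi-likelihood test of edgeR, adjusted by Benjamini-Hochberg over all 18188 genes tested, 9 of the 39 (23.1%) had an adjusted p under 0.05. All 9 were higher with USAG-1 overexpression, and none was lower. Over all genes tested, 15.9% were called, 8.95% higher and 6.91% lower. The 9 genes were RB1CC1, ATG2A, ATG9A, GABARAPL1, NBR1, OPTN, TAX1BP1, CALCOCO2 and TFE3. The median log2 fold change of the 39 genes was 0.11, beside -0.02 over all genes tested. The fold change was above 0 for 29 members and below 0 for 10, beside 8644 and 9544 of all 18188 genes tested. The 3 control and the 3 overexpression levels did not overlap in 21 members (16 higher and 5 lower), which is 53.85% of those tested, beside 37.6% of all genes. Of all genes tested, 3531 were higher and 3301 lower without overlap. Rises were small: the percent change of the 9 called genes was between 17.4% and 62.0%. Without control replicate 3, 15 members were called (14 higher and 1 lower) beside 27% of all genes tested, and without overexpression replicate 2, 4 were called beside 5.98% of all genes. All 9 were also called by DESeq2's Wald test, by limma-voom and when library sizes were computed without the mitochondrially encoded genes.

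**Figure D1:**
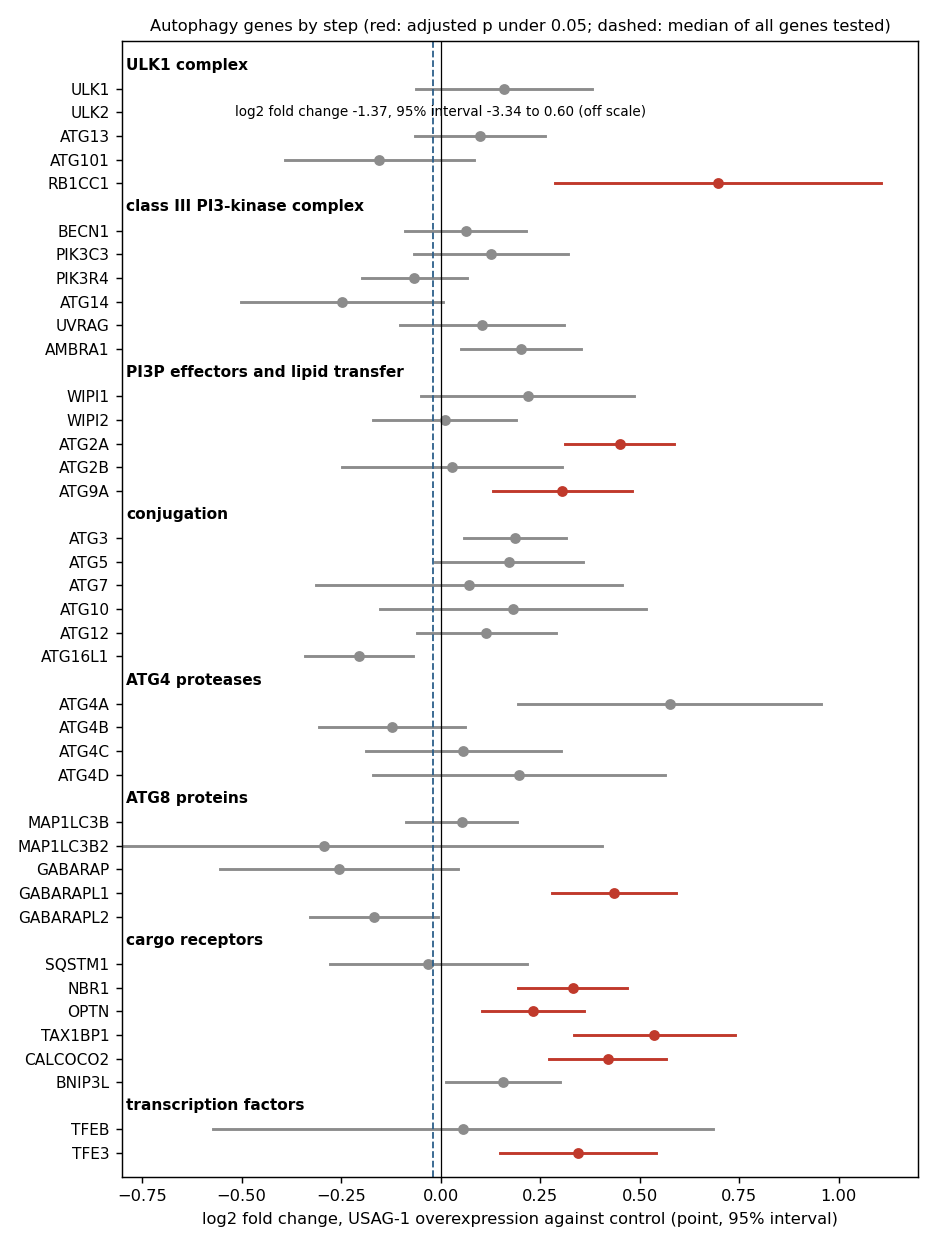
Log2 fold change of the 39 autophagy genes tested (point) with its 95% interval (line), USAG-1 overexpression against control, arranged by step. Red marks an adjusted p under 0.05 in edgeR's test, the dashed line is the median of all genes tested (-0.02), ULK2 is off the scale and given as text, and the interval of MAP1LC3B2 runs past the left edge. The 9 red points all lie to the right of 0, and 4 of them are cargo receptors.

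Cargo receptors held the most called members of the 8 steps, which hold 2 to 6 genes each. Of the 6 receptors, 4 (66.7%) were called higher, beside 8.95% of all genes. Receptors bind cargo on one side and ATG8 proteins on the other, and 5 of the 6 examined bind ubiquitin on cargo. TAX1BP1, CALCOCO2, NBR1 and OPTN rose, whereas SQSTM1 and BNIP3L did not pass the test. The median log2 fold change of the 6 was 0.28.

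TAX1BP1 (ENSG00000106052, chr7:27739331-27844564) recruits the initiation machinery to ubiquitin-marked aggregates. Its level was 85.0, 81.8 and 67.9 CPM in control replicates 1, 2 and 3 and 117.6, 111.9 and 110.9 CPM in the overexpression replicates. Control replicate 3 was the lowest and the groups did not overlap. The log2 fold change was 0.54 (SE 0.09, adjusted p = 0.00606), a rise of 45.0%. The opposite-strand gene JAZF1 overlaps it and held 4.41% as many counts.

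CALCOCO2 (ENSG00000136436, chr17:48831018-48866522) encodes NDP52, a receptor for bacteria and mitochondria. Control libraries had 30.8, 29.3 and 32.2 CPM and overexpression libraries 40.75, 41.3 and 41.4 CPM. The spread within each group was small beside the gap between them, and the log2 fold change was 0.42 (SE 0.06, adjusted p = 0.00459).

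NBR1 (ENSG00000188554, chr17:43170481-43211689), which helps form condensates of ubiquitinated proteins together with SQSTM1, was 38.0, 35.6 and 37.3 CPM in control libraries. In overexpression libraries it was 46.5, 46.7 and 46.4 CPM. All 3 overexpression values were above all 3 control values, with a log2 fold change of 0.33 (SE 0.06, adjusted p = 0.00871). Without overexpression replicate 2 the fold change was also 0.33 and the adjusted p was 0.0535.

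OPTN (ENSG00000123240, chr10:13099449-13138308), a mitophagy receptor that TBK1 phosphorylates, was 93.1, 92.6 and 96.05 CPM in control and 113.4, 106.3 and 110.9 CPM in overexpression libraries. The groups did not overlap, and the log2 fold change of 0.23 (SE 0.06, adjusted p = 0.0274) was the smallest of the 9. It lost its call when control replicate 1 or 2 or any overexpression replicate was left out.

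SQSTM1 (ENSG00000161011, chr5:179806398-179838078), also named p62, is the receptor whose protein is often used as a readout of autophagic degradation. Its level was 718, 719 and 956 CPM in control and 775, 795.5 and 772 CPM in overexpression libraries. Control replicate 3 lay above all the others, and the other 2 controls lay below every overexpression library. With all 6 libraries the log2 fold change was -0.03 (95% interval -0.28 to 0.22, adjusted p = 0.883). Without control replicate 3 its direction turned, with a log2 fold change of 0.13 and an adjusted p of 0.00873. BNIP3L (ENSG00000104765), a receptor in the mitochondrial outer membrane, was 69.0 to 70.1 CPM in control and 72.3 to 80.2 CPM in overexpression libraries (log2 fold change 0.16, adjusted p = 0.129). Of the counts of the 5 ubiquitin-binding receptors, SQSTM1 took 74.4%, 75.0% and 80.4% in control and 70.9%, 72.2% and 71.4% in overexpression libraries. These shares did not overlap between the groups and are not corrected for transcript length. The other 4 receptors in the share are those called higher, so its fall restates their calls and is not independent of them.

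**Figure D2:**
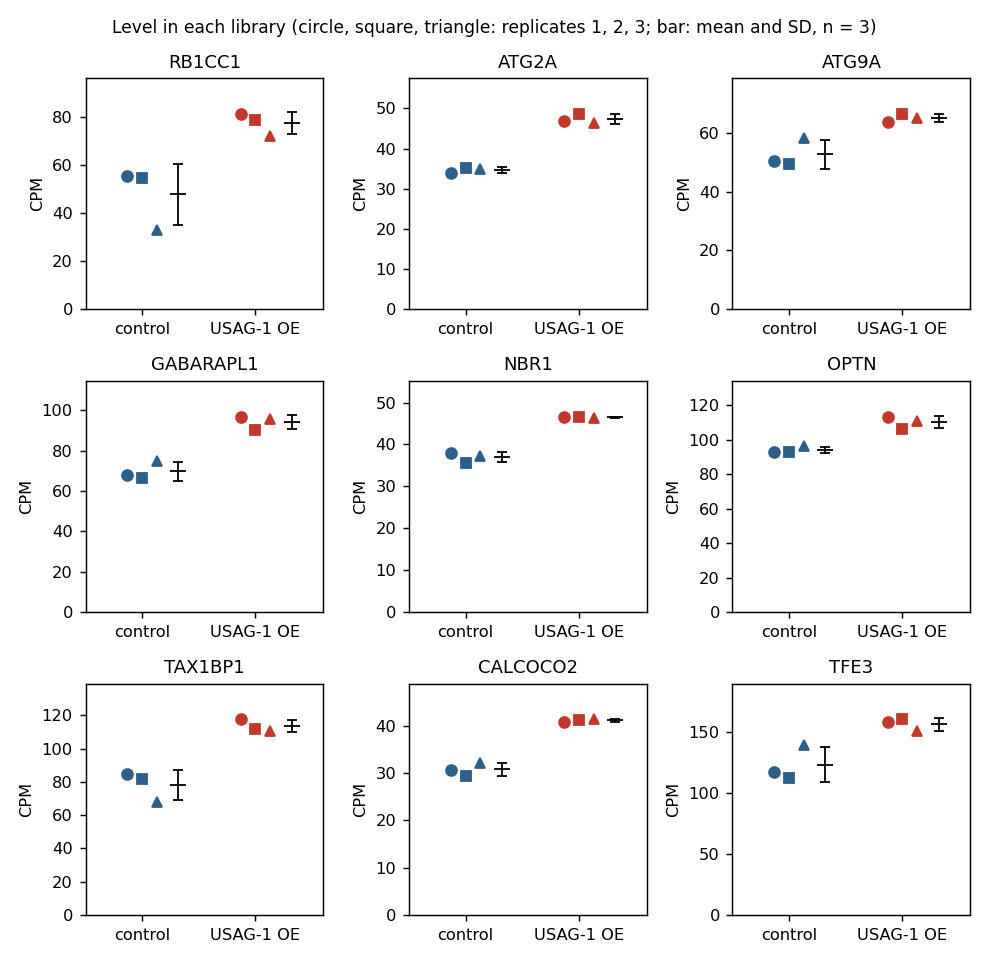
Level in CPM of the 9 called autophagy genes in each library. Circles, squares and triangles are replicates 1, 2 and 3, and the bars give the mean and SD of 3 libraries. In every panel the 3 overexpression libraries (red) lie above the 3 control libraries (blue). Control replicate 3 is the lowest library for RB1CC1 and TAX1BP1 and the highest control for ATG9A, GABARAPL1, OPTN, CALCOCO2 and TFE3.

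Among the ATG8 genes, GABARAPL1 rose while its relatives did not pass the test. ATG8 proteins are small ubiquitin-like proteins that become lipid-anchored on the autophagosome, and those of the LC3 group are the usual markers of its membrane. The median log2 fold change of the 5 tested was -0.17, with 2 above 0 and 3 below.

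GABARAPL1 (ENSG00000139112, chr12:10212458-10223128) was 68.1, 66.3 and 74.9 CPM in control and 96.9, 90.4 and 95.7 CPM in overexpression libraries. The log2 fold change was 0.44 (SE 0.07, adjusted p = 0.00486), a rise of 35.3%, and the groups were well apart.

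The other GABARAP genes had fold changes below 0. GABARAP (ENSG00000170296) was 65.1, 70.1 and 94.0 CPM in control and 59.9, 66.0 and 66.15 CPM in overexpression libraries (log2 fold change -0.26, 95% interval -0.555 to 0.04, adjusted p = 0.232). GABARAPL2 (ENSG00000034713) was 31.6, 32.3 and 35.3 CPM in control and 29.6, 29.0 and 29.8 CPM in overexpression libraries, without overlap (log2 fold change -0.17, adjusted p = 0.148). For both genes control replicate 3 was the highest of the 6 libraries. GABARAPL1 therefore took a larger share of the counts of the 3 genes, 52.0%, 48.8% and 49.9% in overexpression libraries beside 41.3%, 39.3% and 36.7% in control libraries.

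MAP1LC3B (ENSG00000140941, chr16:87383953-87404779), which encodes LC3B, was 70.9, 73.95 and 78.8 CPM in control and 77.4, 77.7 and 77.0 CPM in overexpression libraries. The groups overlapped through control replicate 3, and the log2 fold change was 0.05 (95% interval -0.09 to 0.19, adjusted p = 0.607). MAP1LC3B2, a near-identical copy with which reads can be exchanged, was 1.64 to 2.91 CPM in control and 1.26 to 2.13 CPM in overexpression libraries (log2 fold change -0.29, adjusted p = 0.568). MAP1LC3A was not tested, with 5 counts in 1 control library, 4 counts in 1 overexpression library and none in the other 4.

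**Figure D3:**
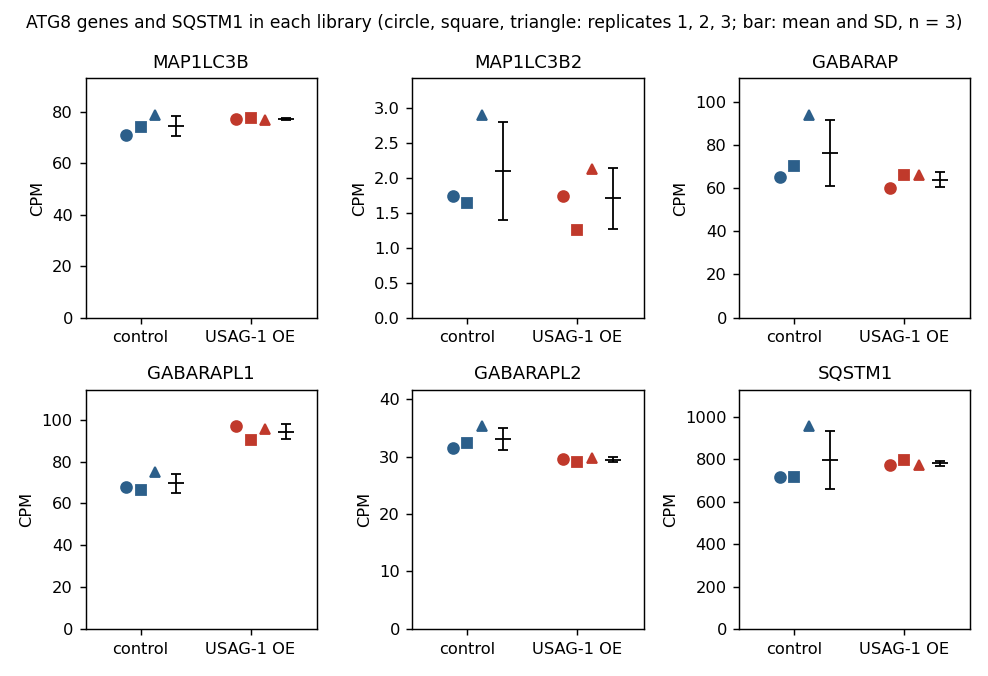
Level in CPM of the 5 ATG8 genes tested and of SQSTM1 in each library. Circles, squares and triangles are replicates 1, 2 and 3, and the bars give the mean and SD of 3 libraries. GABARAPL1 is the only panel of the 6 in which the overexpression libraries lie above all controls, and control replicate 3 (blue triangle) is the highest library in the other 5.

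Of the ULK1 complex, which nutrient and energy sensors switch on, RB1CC1 rose and the other 4 members did not pass the test. RB1CC1 (ENSG00000023287, chr8:52622458-52745843) encodes FIP200, the scaffold that also binds cargo receptors. Its level was 55.6, 54.75 and 33.0 CPM in control and 81.5, 78.6 and 72.3 CPM in overexpression libraries. The groups did not overlap, and control replicate 3 lay far below the other 2 controls. The log2 fold change of 0.70 (SE 0.18, adjusted p = 0.0338) was the largest rise among the 39 genes and had the widest error of the 9 called. Without control replicate 3 it was 0.50 and was called, and when any overexpression replicate was left out it lost its call (adjusted p between 0.0857 and 0.116).

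The kinase gene ULK1 (ENSG00000177169) was 22.9 to 28.8 CPM in control and 28.3 to 30.7 CPM in overexpression libraries, with overlap (log2 fold change 0.16, adjusted p = 0.311). The binding partners ATG13 and ATG101 had log2 fold changes of 0.10 (adjusted p = 0.399) and -0.15 (adjusted p = 0.36). The second kinase gene ULK2 was barely detected, with 15, 19 and 11 counts in control and 8, 0 and 9 counts in overexpression libraries. Its groups did not overlap, but the interval of its log2 fold change of -1.37 ran from -3.34 to 0.60 (adjusted p = 0.329).

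None of the 6 genes of the class III PI3-kinase complex passed the test, and their log2 fold changes lay between -0.25 and 0.20. Of its core, the lipid kinase PIK3C3 (0.13, adjusted p = 0.355), its regulatory subunit PIK3R4 (-0.07, adjusted p = 0.486) and the scaffold BECN1 (0.06, adjusted p = 0.576) differed by less than 0.14 on the log2 scale. The interval of BECN1 was -0.09 to 0.21. ATG14, which directs the complex to the forming autophagosome, was 14.7 to 16.2 CPM in control and 11.7 to 14.7 CPM in overexpression libraries (log2 fold change -0.25, adjusted p = 0.173). UVRAG, its counterpart on endosomes, had a log2 fold change of 0.10 (adjusted p = 0.49). AMBRA1, which binds BECN1 and ubiquitin ligases, was 38.5 to 41.9 CPM in control and 44.0 to 47.1 CPM in overexpression libraries, without overlap (log2 fold change 0.20, adjusted p = 0.0742). BECN1 and ATG14 each overlap an opposite-strand gene with more counts (PSME3 and FBXO34), and the same holds for ATG7, ATG10 (RPS23) and ATG4D (KRI1). A gene on the same strand overlaps AMBRA1 and held 79.4% as many counts. Opposite-strand genes with fewer counts overlap MAP1LC3B (FBXO31, 32.6% as many), SQSTM1 (MGAT4B, 27.7%), ATG3 (SLC35A5, 27.4%) and WIPI1 (ARSG, 26.75%), among others. The use of strand in counting is not given in the sources used here, so the values of these genes are uncertain.

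Both ATG2A and ATG9A rose among the genes of PI3P binding and lipid supply. With all 6 libraries, all 5 of these genes had a fold change above 0. ATG2A (ENSG00000110046, chr11:64894546-64917209) encodes a bridge-like protein that moves lipids from the endoplasmic reticulum into the growing membrane. It was 33.9, 35.2 and 34.9 CPM in control and 47.0, 48.7 and 46.3 CPM in overexpression libraries. The 3 values of each group lay close together, and the log2 fold change of 0.45 (SE 0.06, adjusted p = 0.00255) had the smallest adjusted p of the 39 genes.

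ATG9A (ENSG00000198925, chr2:219219380-219229639), the lipid scramblase carried on seed vesicles, was 50.4, 49.6 and 58.4 CPM in control and 63.8, 66.7 and 65.3 CPM in overexpression libraries. Control replicate 3 was nearest to the overexpression libraries without reaching them. The log2 fold change was 0.31 (SE 0.08, adjusted p = 0.0309), and the call was lost when control replicate 1 or 2 or any overexpression replicate was left out. A gene on the same strand overlaps ATG9A and held 13.5% as many counts. ATG2B, the paralog of ATG2A, was 19.9 to 27.2 CPM in control and 23.9 to 26.3 CPM in overexpression libraries (log2 fold change 0.03, adjusted p = 0.904). The difference between the fold changes of the 2 paralogs was not tested. The PI3P-binding WIPI1 (0.22, adjusted p = 0.25) and WIPI2 (0.01, adjusted p = 0.951) did not pass the test. The fold change of WIPI2 turned below 0 without control replicate 1 or 2. That of ATG2B turned below 0 without control replicate 3 or overexpression replicate 1.

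None of the 6 conjugation genes passed the test with all 6 libraries, and 5 of the 6 fold changes were above 0. ATG7 (ENSG00000197548, chr3:11272309-11557665), the activating enzyme of both conjugation systems, was 21.8, 17.6 and 29.6 CPM in control and 24.4, 23.7 and 24.4 CPM in overexpression libraries. The control libraries spread to both sides of the overexpression libraries, so the log2 fold change of 0.07 had an interval of -0.31 to 0.45 (adjusted p = 0.818). Without control replicate 3 it was 0.30 (adjusted p = 0.0445), and without control replicate 2 its direction turned to -0.09 (adjusted p = 0.733). ATG7 overlaps the opposite-strand gene VGLL4.

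ATG5 (ENSG00000057663, chr6:106045423-106325791), which is joined to ATG12 and directs lipid attachment, was 43.7, 44.5 and 37.0 CPM in control and 47.4, 47.3 and 46.3 CPM in overexpression libraries. All 3 overexpression values were above all controls, with a log2 fold change of 0.17 (95% interval -0.01 to 0.36, adjusted p = 0.196). ATG3, the enzyme that transfers ATG8 proteins to lipid, was 70.8 to 73.8 CPM in control and 79.9 to 84.3 CPM in overexpression libraries (log2 fold change 0.19, adjusted p = 0.0583). ATG16L1, which places the conjugating complex on the membrane, was 46.35 to 48.1 CPM in control and 39.75 to 42.0 CPM in overexpression libraries (log2 fold change -0.20, adjusted p = 0.052). ATG3 and ATG16L1 therefore lay just outside the threshold in opposite directions, both without overlap between groups. ATG12 (0.11, adjusted p = 0.359) and ATG10, the enzyme that joins it to ATG5 (0.18, adjusted p = 0.448), overlapped between groups.

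The ATG4 proteases trim ATG8 proteins before conjugation and release them from lipid afterwards, and none of the 4 genes passed the test. ATG4A was 6.83, 10.3 and 7.34 CPM in control and 12.98, 11.7 and 11.8 CPM in overexpression libraries. The groups did not overlap, and the log2 fold change of 0.57 (SE 0.17, adjusted p = 0.0511) fell just short of the threshold. ATG4B, ATG4C and ATG4D had log2 fold changes of -0.12, 0.06 and 0.20, with adjusted p between 0.352 and 0.765 and overlapping groups.

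**Figure D4:**
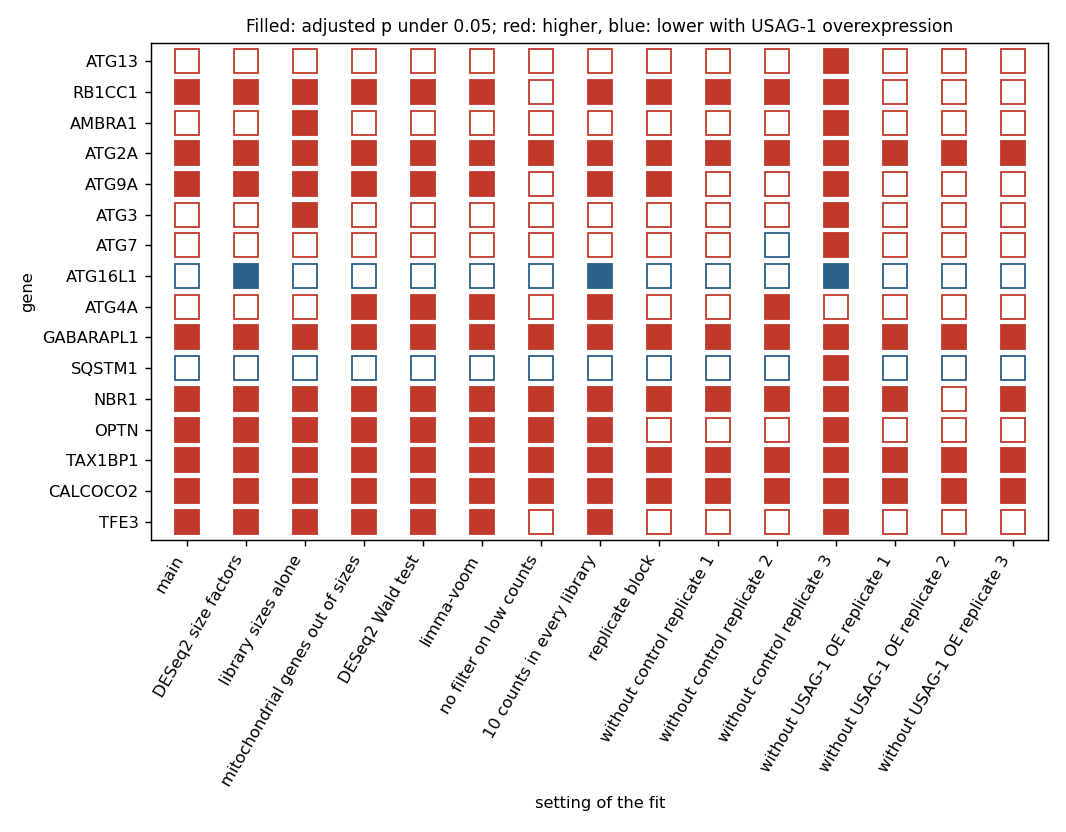
Calls of the 16 autophagy genes that passed an adjusted p of 0.05 under at least 1 setting, with one column per setting of the fit. Filled squares are called, open squares are not called, red is higher and blue is lower with USAG-1 overexpression. ATG2A, GABARAPL1, TAX1BP1 and CALCOCO2 are filled in every column, and the column without control replicate 3 holds 15 filled squares.

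TFEB and TFE3 belong to the MiT/TFE family of transcription factors, which switch on lysosomal and autophagy genes when nutrients are low. TFE3 (ENSG00000068323, chrX:49028726-49043410) rose from 117, 112.8 and 139.5 CPM in control to 158.1, 160.5 and 150.6 CPM in overexpression libraries. The groups did not overlap, with control replicate 3 nearest to the overexpression libraries, and the log2 fold change was 0.35 (SE 0.09, adjusted p = 0.0303). The call was lost when control replicate 1 or 2 or any overexpression replicate was left out. TFEB was 2.25 to 3.42 CPM in control and 2.09 to 4.01 CPM in overexpression libraries, with a log2 fold change of 0.06 and a wide interval of -0.57 to 0.68 (adjusted p = 0.917).

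The relatives of TFEB and the proteins that hold these factors at the lysosome were counted as a further list. Of the 8 genes tested, 5 (62.5%) rose and none fell, beside 8.95% and 6.91% of all genes, and the median log2 fold change was 0.41. RRAGC, a Rag GTPase that recruits MiT/TFE factors and mTORC1 to lysosomes, was 57.4, 57.7 and 54.7 CPM in control and 84.7, 76.4 and 80.0 CPM in overexpression libraries (log2 fold change 0.51, SE 0.06, adjusted p = 0.00203). MITF, the family member best known from melanocytes, was 53.75, 54.9 and 50.4 CPM in control and 70.1, 68.8 and 69.9 CPM in overexpression libraries (0.39, SE 0.06, adjusted p = 0.00441). Neither gene overlapped between groups. Among the genes named after their values were seen, FNIP2 (0.52, adjusted p = 0.00749) and FNIP1 (0.43, adjusted p = 0.0309), the partners of folliculin, and RRAGD (0.43, adjusted p = 0.0199) also rose. Folliculin itself (FLCN, 0.06) and RRAGA (-0.17) did not pass the test, nor did the barely detected TFEC. The calls of FNIP1 and RRAGD were lost when control replicate 1 or 2 or overexpression replicate 1 or 2 was left out, that of RRAGD also without overexpression replicate 3 and that of FNIP1 also without the filter. This list was drawn up with earlier results of these data known, so its count is not independent evidence of its direction.

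**Figure D5:**
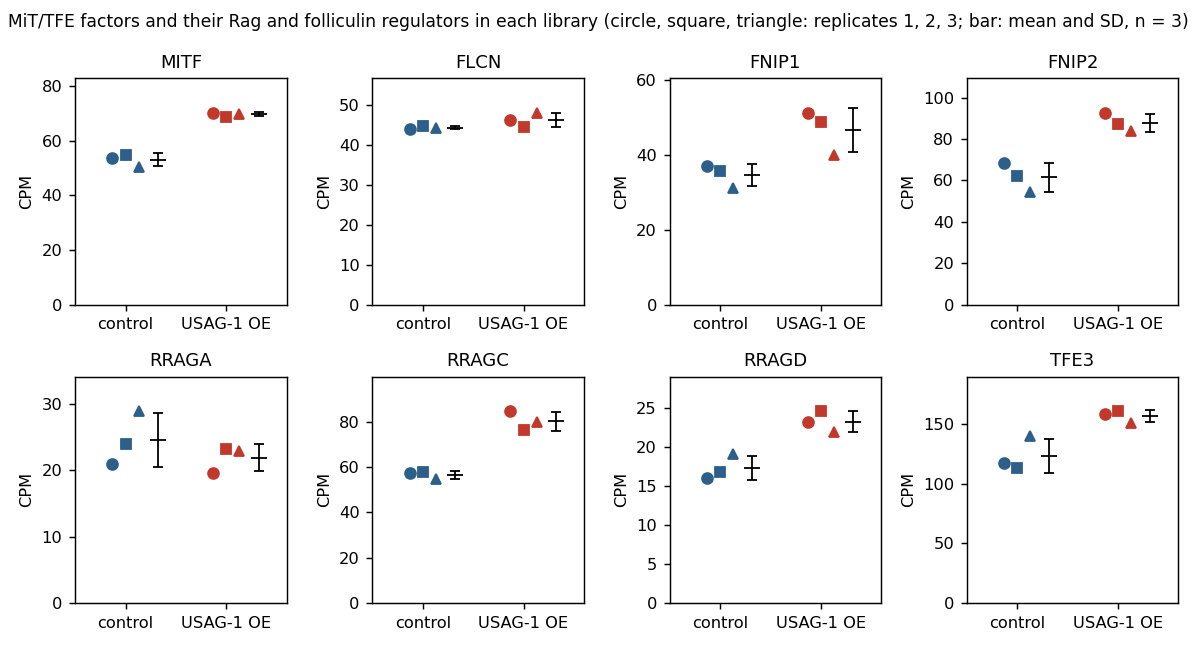
Level in CPM of MITF, TFE3 and the Rag and folliculin genes in each library. Circles, squares and triangles are replicates 1, 2 and 3, and the bars give the mean and SD of 3 libraries. The overexpression libraries lie above all controls for MITF, FNIP1, FNIP2, RRAGC, RRAGD and TFE3, and the groups overlap for FLCN and RRAGA.

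The rest of the pathway showed calls in both directions. With the TFEB relatives included, 14 of 62 further pathway genes tested were called (11 higher and 3 lower), a share of 22.6% with a median log2 fold change of 0.05, beside 15.9% called and a median of -0.02 over all genes tested. Higher calls made up 17.7% of the 62 and lower calls 4.84%, beside 8.95% and 6.91% of all genes. Of the 11 higher calls, 5 came from the TFEB relatives, where 62.5% of genes were called higher. In each of the other lists 0 to 14.3% were called higher. The pooled share of higher calls is therefore not independent evidence either. In fusion of autophagosomes with lysosomes, 2 of 14 rose and 1 fell (21.4% called). SNAP29, a SNARE protein of this fusion, was 41.2 to 43.4 CPM in control and 53.3 to 54.4 CPM in overexpression libraries (log2 fold change 0.36, adjusted p = 0.00537). VPS16, a core subunit of the HOPS tether, was 25.8 to 27.3 CPM in control and 19.85 to 22.45 CPM in overexpression libraries (log2 fold change -0.32, adjusted p = 0.0269). SNAP29 kept its call under every alternative, while VPS16 lost it with the replicate number as a block and in the leave-one-out fits other than that without control replicate 3.

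Of 17 genes of nutrient and energy signalling to ULK1, 2 rose and none fell, a share of 11.8% that lies below the 15.9% called over all genes. They were MTOR, the kinase that restrains ULK1 when amino acids are present (0.24, adjusted p = 0.0348), and AKT1S1, whose product PRAS40 is an inhibitory subunit of mTORC1 (0.37, adjusted p = 0.0296). Both lost their calls without the filter and in every leave-one-out fit but that without control replicate 3, and MTOR also with the replicate number as a block. Of 8 other membrane and complex factors, 1 was called (12.5%). ATG16L2, a paralog of ATG16L1, was 16.5, 15.6 and 8.77 CPM in control and 7.71, 8.08 and 7.67 CPM in overexpression libraries (log2 fold change -0.80, adjusted p = 0.0435), with control replicate 3 close to the overexpression libraries. Its call was lost in the same leave-one-out fits and also under limma-voom, with library sizes alone, without the filter and with the replicate number as a block. VMP1, a lipid scramblase of the endoplasmic reticulum, was 109 to 125 CPM in control and 105 to 107 CPM in overexpression libraries (log2 fold change -0.16, adjusted p = 0.146).

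Receptors for organelles and other cargo were called in 3 of 15 cases (20.0%), near the 15.9% called over all genes. Of these, 2 were higher (13.3%) and 1 was lower (6.67%), beside 8.95% and 6.91% of all genes. CCPG1, an endoplasmic reticulum receptor that binds FIP200, was 21.7 to 27.7 CPM in control and 36.7 to 40.01 CPM in overexpression libraries (log2 fold change 0.56, SE 0.10, adjusted p = 0.0101). PHB2, an inner mitochondrial membrane protein that can act as a mitophagy receptor, was 218 to 272 CPM in control and 184.5 to 192 CPM in overexpression libraries (log2 fold change -0.34, adjusted p = 0.0328). CCPG1 lost its call without overexpression replicate 1, and PHB2 lost it without the filter and without control replicate 2 or any overexpression replicate.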

How the data were processed

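RNA-seq of 6 HK-2 libraries (3 control and 3 USAG-1 overexpression, grouped by the sample labels) was analysed. The authors deposited 1 table of whole-number read counts per gene, not normalized, although its name speaks of FPKM. Per the labels, libraries were strand-specific with paired reads of 150 bases. The labels disagree on poly(A) selection or removal of ribosomal RNA. The submitters' processing notes name cutadapt 1.9, FastQC and hg38, and the aligner, annotation and counting tool are not given in the sources used here. Positions are those in the authors' table.

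Tests were made with edgeR 4.0.16 in R 4.3.3 (filterByExpr, TMM, quasi-likelihood with group only), with Benjamini-Hochberg adjustment over 18188 genes and a threshold of 0.05 at any fold change. The genes tested held 99.9% of counts, and 6727 genes had no count. Standard errors were obtained from the fold change (log2) and the F statistic, and 95% intervals use the quasi-likelihood degrees of freedom. Limits of 3 counts cover counting error only. Libraries of a group differed beyond sampling noise (chi-square per degree of freedom at least 6.52). This value was 42.3 and 42.7 for the pairs with control replicate 3 and at most 8.35 for the other pairs. The code was tested on simulated data.

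The alternatives were DESeq2 size factors, library sizes alone, mitochondrially encoded genes left out of library sizes, DESeq2 1.42.0 (Wald test), limma-voom (limma 3.58.1), no filter, a minimum of 10 counts in each library, a replicate block, each library left out in turn, and a threshold of 0.01. The 40 genes, the pathway and marker lists (typed from general knowledge) and the tests were chosen with earlier results of these data known. By rule, all 40 genes were named, with values per library for called genes, SQSTM1, MAP1LC3B, ATG5 and ATG7, as were the 2 genes with the smallest p of each pathway list and SOSTDC1. Genes outside this rule are PLEKHM1 and BCL2L13 (called, not described), FNIP1, FNIP2, RRAGD, FLCN, RRAGA and TFEC, the cell type marker genes and the overlapping genes. No human genome or transcript lengths were used here, so no sequences are given, and shares and sums of counts over several genes are not corrected for length.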

Additional observations from a re-analysis of the deposited data

How the results depend on the processing

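Calls depended most on single libraries. When 1 library was left out in turn, 1137 to 5091 genes were called in place of 2884, and 4 to 15 autophagy genes in place of 9. The highest values came without control replicate 3 and the lowest without overexpression replicate 2. Leaving out 1 library can end a call through the smaller group alone. SQSTM1 turned from -0.03 to 0.13 on the log2 scale without control replicate 3 and lay between -0.10 and 0.13 over these fits, and the cause was not tested. At an adjusted p under 0.01, 1104 genes and 5 autophagy genes (ATG2A, GABARAPL1, NBR1, TAX1BP1 and CALCOCO2) were called. With the replicate block, 7 autophagy genes and 2381 of all genes were called, and OPTN (adjusted p = 0.0531) and TFE3 (adjusted p = 0.0502) lost their calls. Replicate numbers were not taken to pair the libraries, because the correlation of deviations of libraries with the same number was 0.07, -0.05 and 0.04, and libraries did not each correlate best with their own number. DESeq2 size factors gave 10 autophagy genes, library sizes alone 11, mitochondrially encoded genes left out of library sizes 10, limma-voom 10, the Wald test of DESeq2 10, no filter 6 and at least 10 counts in every library 11 of 38 tested. Over all genes the same settings, in this order, called 2848, 2920, 2914, 2895, 3365, 2034 (of 32507 tested) and 3016 (of 15906 tested). Without the filter, RB1CC1 (adjusted p = 0.0672), ATG9A (0.0558) and TFE3 (0.0557) lost their calls. ATG2A, GABARAPL1, TAX1BP1 and CALCOCO2 kept theirs under every alternative fit at the 0.05 threshold. The genes gained under at least 1 alternative were ATG4A, AMBRA1, ATG3 and, lower, ATG16L1, and, only without control replicate 3, ATG13, ATG7 and SQSTM1. The median of the 39 members stayed between 0.10 and 0.16, and SOSTDC1 between 5.86 and 6.05.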

Other observations

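The summed level of the 40 autophagy genes was 2270, 2272 and 2590 CPM in control and 2560, 2588 and 2550 CPM in overexpression libraries. The sums overlapped through control replicate 3 and are led by SQSTM1, the gene with the most counts. By step, the sums did not overlap for the ULK1 complex (172.5 to 183.6 CPM in control and 209.8 to 212.4 CPM in overexpression libraries), the class III PI3-kinase complex (201.5 to 204.4 and 206.3 to 212.9 CPM), PI3P binding and lipid supply (203 to 221.4 and 235 to 241.3 CPM), conjugation (214.1 to 220.4 and 227.3 to 231 CPM) and the transcription factors (115 to 142.9 and 154.6 to 163.5 CPM). They overlapped for the ATG4 proteases, the ATG8 genes and the cargo receptors. Single genes carried much of some sums. RB1CC1 had a mean of 47.8 CPM in control and 77.5 CPM in overexpression libraries, beside 178.8 and 211.1 CPM for the ULK1 complex. TFE3 had 123.1 and 156.4 CPM, beside 126.0 and 159.4 CPM for the transcription factors. AMBRA1 had 39.7 and 45.7 CPM, beside 203.1 and 210.3 CPM for the class III PI3-kinase complex. A sum without overlap therefore does not show that the genes of a step rose together. These sums were computed after the values of single genes were seen and carry no test.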
